A study of Mus musculus with 16 samples.

Results

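The major histocompatibility complex (MHC) class I presentation genes are the 9 genes H2-K1, H2-D1, B2m, Tap1, Tap2, Tapbp, Psmb8, Psmb9 and Nlrc5, found by their gene names in the table of raw counts. All 9 were present among the 20200 genes of the table, and all 9 passed the filter on low counts that left 11998 genes. The data are bulk RNA-seq of 4 myeloid populations sorted from the bone-to-tendon interface tissue of adult wild-type C57BL/6 mice (C57BL/6J in the study's methods), on day 1 and day 14 after anterior cruciate ligament reconstruction (ACLR), an operation in which a tendon graft is placed in a drilled bone tunnel. Neutrophils were sorted as CD11b+Ly6G+ cells, F4/80- myeloid cells as CD11b+Ly6G-F4/80- cells, and the CD9+ and the CX3CR1+ macrophages were CD11b+Ly6G-F4/80+ cells that bore the named marker. The few cells with both markers were sorted as CD9+ macrophages. All mice were males that had the operation, so no group shows the genes without surgery, and each of the 16 libraries, 2 for each population and day, came from the pooled cells of several mice. The p-values below measure the spread between these pools.

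MHC class I molecules display peptides from inside the cell to CD8+ T cells, and they are also read by natural killer cells. The proteasome cuts proteins into peptides, and in its interferon-inducible form, the immunoproteasome, the subunits encoded by Psmb8 (LMP7) and Psmb9 (LMP2) replace standard catalytic subunits. The transporter formed by the products of Tap1 and Tap2 carries the peptides into the endoplasmic reticulum, where tapasin, the product of Tapbp, helps to load them onto a class I heavy chain. H2-K1 and H2-D1 encode the classical heavy chains H-2K and H-2D of this strain, B2m encodes beta-2-microglobulin, the light chain they all need, and Nlrc5 encodes a transactivator of class I genes that is itself induced by interferon.

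In the coordinates of the deposited table (mm10), 7 of the members lie on chromosome 17, in the mouse MHC. These are H2-K1 (chr17:33996017-34000333, minus strand), H2-D1 (chr17:35262730-35267499, plus), Tap1 (chr17:34187553-34197225, plus), Tap2 (chr17:34203527-34216321, plus), Tapbp (chr17:33915899-33929292, plus), Psmb8 (chr17:34197721-34201454, plus) and Psmb9 (chr17:34181988-34187764, minus). B2m lies at chr2:122147686-122153083 and Nlrc5 at chr8:94434356-94527272, both on the plus strand. Psmb9 and Tap1 start next to each other on opposite strands, and their exons share 212 bases in the GENCODE M21 annotation of the same build. Tapbp shares 149 exon bases with Zbtb22 on its own strand. Classical and non-classical class I heavy chain genes are alike in sequence, and how reads that fit several of them were treated is not given in the sources used here, so the split of counts among the H2 genes is uncertain.

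RefSeq promoter windows (GRCm38.p6, 250 bases before to 50 after the start of transcription) were at hand for 7 of the 9 members, all except Tap2 and Nlrc5, with 2 windows for H2-K1, of which the one for the start farther downstream is shown. The windows of H2-K1 (chr17:34000284-34000583, minus strand), H2-D1 (chr17:35262844-35263143, plus strand) and B2m (chr2:122147437-122147736, plus strand) are shown because they hold the known interferon and NF-kappaB elements of class I promoters, and because H2-K1 and H2-D1 are the pair of members whose levels parted in neutrophils (below). Capitals mark a kappaB motif and an interferon regulatory factor (IRF) element in the heavy chain genes and an interferon-stimulated response element (ISRE) in B2m.
H2-K1: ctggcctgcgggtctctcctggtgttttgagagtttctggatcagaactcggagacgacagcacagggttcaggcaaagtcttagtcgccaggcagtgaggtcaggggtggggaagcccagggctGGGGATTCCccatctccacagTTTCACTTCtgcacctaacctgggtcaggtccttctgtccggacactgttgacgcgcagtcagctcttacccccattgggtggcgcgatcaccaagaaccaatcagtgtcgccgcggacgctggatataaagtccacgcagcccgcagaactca
H2-D1: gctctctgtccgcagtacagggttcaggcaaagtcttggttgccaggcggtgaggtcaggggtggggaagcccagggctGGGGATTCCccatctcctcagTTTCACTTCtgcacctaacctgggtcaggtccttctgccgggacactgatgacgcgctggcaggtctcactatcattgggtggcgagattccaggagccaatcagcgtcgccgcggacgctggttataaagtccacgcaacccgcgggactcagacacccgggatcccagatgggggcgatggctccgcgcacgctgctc
B2m: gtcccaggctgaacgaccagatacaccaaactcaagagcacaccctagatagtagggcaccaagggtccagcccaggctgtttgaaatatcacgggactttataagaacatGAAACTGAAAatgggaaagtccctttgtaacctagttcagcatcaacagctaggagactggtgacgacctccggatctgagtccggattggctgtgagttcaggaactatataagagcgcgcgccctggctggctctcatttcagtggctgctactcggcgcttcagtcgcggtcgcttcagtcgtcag
The letters GGGGATTCC (kappaB) stood from -125 to -117 relative to the start of H2-K1 and from -171 to -163 in H2-D1, and 0.25% of all 32851 promoter windows held them on either strand. Other spellings of a kappaB site were not searched. That share is therefore of these exact letters, and windows without them, B2m among them, may hold such a site. The IRF element, searched as GAANNGAAA on either strand, followed in both genes and was read on the reverse strand as TTTCACTTC; 7.52% of all windows held such a match. The longest run of letters shared by the H2-K1 and H2-D1 windows was 47 bases and included the kappaB letters. The ISRE, searched by its core letters on either strand, was present in B2m from -139 to -130 and in 3.44% of all windows. None of the capitalised matches overlapped another. The searched windows of Tap1, Tapbp, Psmb8 and Psmb9 held no match of the kappaB, IRF or ISRE letters. These are matches of letters, and no binding was measured in these cells.

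Total counts per library lay between 9233952 and 19814119, and the smallest count of any member in any library was 71 (Nlrc5 in a neutrophil library of day 14). Replicates correlated at a Pearson r of at least 0.976 in log2 CPM in 7 of the 8 groups, and at 0.935 in CD9+ macrophages on day 1. Levels are given as CPM (read counts scaled to a common library total) with the trimmed mean of M values (TMM) scaling of edgeR. Neutrophil libraries had TMM factors of 0.752 to 0.781 against 0.897 to 1.16 in the others, and scaling by library size alone moved the median log2 difference of all genes by 0.33 to 0.61 in the comparisons with neutrophils. Ly6g, the antigen of the neutrophil sort, was at 103 CPM on day 1 and 276 CPM on day 14 in neutrophils and at no more than 9.14 CPM as a group mean elsewhere. Adgre1, which encodes F4/80, was at 139 to 180 CPM in both macrophage populations and at 9.02 to 11.1 CPM in F4/80- cells.

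Other markers moved with some groups. The summed level of 4 eosinophil markers was 5806 to 9368 CPM in the CD9+ libraries of day 14 and 489 to 561 CPM in those of day 1, and at most 115 CPM in the other populations. The sum of 7 neutrophil markers was 2310 to 7630 CPM in CD9+ libraries and 11800 to 15804 CPM in F4/80- libraries, against 442 to 1066 CPM in CX3CR1+ libraries and 31711 to 54915 CPM in neutrophils. F4/80- libraries also had 600 to 1334 CPM of 4 basophil and mast cell markers and 38.4 to 67.8 CPM of 6 dendritic cell markers, a list that was at 11.9 to 13.9 CPM in the CX3CR1+ libraries of day 1 and at 52.0 to 58.2 CPM in those of day 14. The sum of 6 macrophage markers was 688 to 790 CPM on day 1 and 526 to 877 CPM on day 14 in CD9+ libraries, and 54.4 to 91.3 CPM in F4/80- libraries. It was 820 to 858 CPM in the CX3CR1+ libraries of day 1 and 467 to 521 CPM in those of day 14. In neutrophils it went from 207 to 218 CPM on day 1 to 68.3 to 72.8 CPM on day 14, and the group means of all 6 of these markers were lower on day 14. The neutrophil markers Cxcr2 and Csf3r were lower on day 14 in neutrophils too, while the other 5 of the 7 were higher. The part of these cells in the results below was not tested, and in bulk samples fewer cells of a type and less RNA per cell cannot be told apart. T and NK cell markers (4 of 7 in the table) summed to at most 8.88 CPM and B cell markers (4 of 4) to at most 9.81 CPM. Cd3g, a defining T cell marker, was at 0 in all CD9+ and CX3CR1+ libraries. Cd3d, Klrb1c and Trac were above 0 in some of these libraries, at up to 0.625, 1.62 and 0.0521 CPM. Fcer1a was at 0 in CX3CR1+ libraries of day 1, and the dendritic cell markers Xcr1 and Siglech were at 0 in neutrophils of day 14. The other markers of their lists were above 0 in some library of these groups.

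The plot of the 9 members by library shows the main pattern. Both macrophage populations had similar levels of most members, F4/80- cells had the lowest levels of the heavy chains and tapasin, and neutrophils had the highest H2-D1 and Tap2 but the lowest Psmb8 and Nlrc5.

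**Figure D1:**
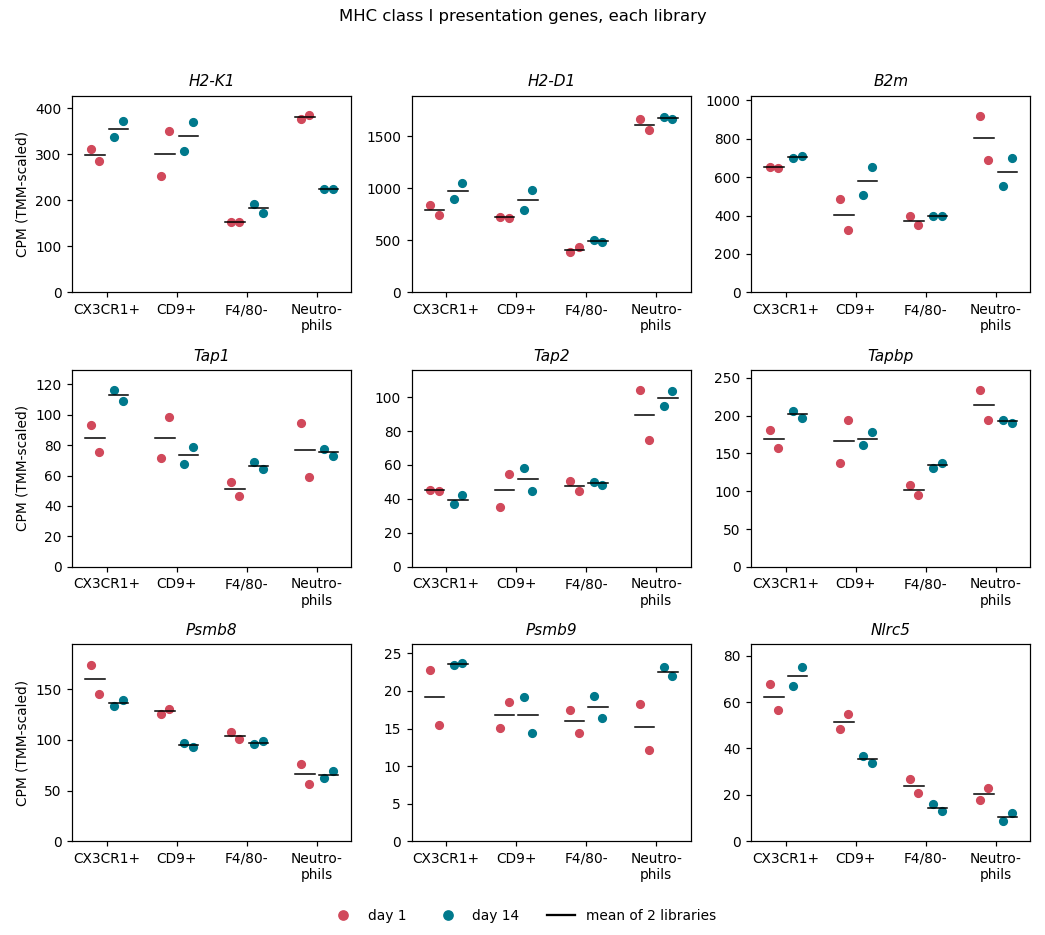
TMM-scaled CPM (y axis, from 0) of the 9 members in each library, by population (x axis) and day (colour), with the mean of the 2 libraries as a line. H2-D1 in neutrophils sits between 1558 and 1685 CPM, above all other libraries, and Nlrc5 is highest in CX3CR1+ macrophages and lowest in neutrophils.

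For the heavy chains, H2-K1 was at 311 and 284 CPM in the day 1 libraries of CX3CR1+ macrophages and at 337 and 373 CPM in those of day 14. In CD9+ macrophages it was at 252 and 350.2 CPM on day 1 and 308 and 370.3 CPM on day 14. In F4/80- cells it was at 154 and 154 CPM and 193 and 174 CPM on these days, below every library of the other populations. In neutrophils H2-K1 was at 376 and 385 CPM on day 1, above all other libraries, and at 224 and 225 CPM on day 14, below all macrophage libraries. The day 1 difference from CD9+ macrophages did not pass edgeR's quasi-likelihood test (adjusted p = 0.0528). That from CX3CR1+ macrophages depended on the scaling (below).

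H2-D1 was above H2-K1 in every library. It was at 841 and 742 CPM on day 1 and 898 and 1047 CPM on day 14 in CX3CR1+ macrophages, and at 723 and 714 CPM and 789 and 986 CPM in CD9+ macrophages. F4/80- cells had 386 and 432 CPM on day 1 and 505 and 488 CPM on day 14. In neutrophils it was at 1662 and 1558 CPM on day 1 and 1685 and 1665 CPM on day 14, so the fall of H2-K1 in neutrophils was not accompanied by a fall of H2-D1.

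B2m, the light chain, was at 655 and 645 CPM and 700.5 and 709 CPM in the CX3CR1+ libraries of day 1 and day 14. It varied more in CD9+ macrophages, with 484 and 325 CPM on day 1 and 506 and 652 CPM on day 14, and in neutrophils, with 919 and 688 CPM and 556 and 698 CPM. F4/80- cells had 398 and 349.7 CPM on day 1 and 395 and 397 CPM on day 14. Levels were also divided by the union of all exons annotated for a gene. By this measure B2m was the most abundant member, with group means of 434 to 935 CPM per kb. It was followed by H2-D1 with 159 to 650 and H2-K1 with 52.3 to 129 CPM per kb. All other members were under 60 CPM per kb, and Psmb9, at 4.16 to 6.44, and Nlrc5, at 1.21 to 8.37 CPM per kb, were the least abundant by this measure.

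The transporter genes differed in their pattern. Tap1 was highest in the CX3CR1+ libraries of day 14, at 116 and 109 CPM, and lowest in the F4/80- libraries of day 1, at 55.5 and 46.6 CPM. Tap2 was at 74.5 to 104 CPM in the 4 neutrophil libraries, and at 35.4 to 58.4 CPM in all 12 other libraries. Tapbp, the loading factor, lay between 94.5 and 137 CPM in F4/80- libraries and between 138 and 234 CPM in all others.

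Among the immunoproteasome subunits, Psmb8 was highest in the CX3CR1+ libraries, at 174 and 145 CPM on day 1 and 134 and 139 CPM on day 14, and lowest in neutrophils, at 76.4 and 56.1 CPM and 62.5 and 69.1 CPM. Psmb9 stayed between 12.2 and 23.7 CPM in all 16 libraries. No neighbours in the order of its group means on either day passed the test.

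Nlrc5 had the widest range of the members relative to its level. In CX3CR1+ macrophages it was at 67.8 and 56.5 CPM on day 1 and 67.0 and 75.2 CPM on day 14. CD9+ macrophages had 48.3 and 54.6 CPM on day 1 and 36.9 and 33.5 CPM on day 14, and F4/80- cells had 26.6 and 20.7 CPM and 15.9 and 13.1 CPM. Neutrophils had 17.8 and 22.9 CPM on day 1 and 8.52 and 12.0 CPM on day 14. The order of the group means was the same on both days, with CX3CR1+ macrophages first and neutrophils last. In that order CX3CR1+ and CD9+ macrophages did not differ beyond the spread on day 1, with a log2 difference of 0.27 ± 0.19 (SE, adjusted p = 0.372), nor did F4/80- cells and neutrophils on day 1, with 0.22 ± 0.20 (SE, adjusted p = 0.338), or on day 14, with 0.50 ± 0.22 (SE, adjusted p = 0.0536). The other neighbours passed the test.

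The first question of the design was how the members changed from day 1 to day 14 within each population. In CX3CR1+ macrophages 0 of the 9 members passed edgeR's quasi-likelihood test at an adjusted p under 0.05, while 6.54% of all tested genes rose and 6.07% fell. Their log2 fold changes (day 14 over day 1) lay between -0.23 and 0.42, with a median of 0.25 against 0.03 over all tested genes. At an unadjusted p under 0.05 it was 1 of the 9, and DESeq2 also gave 0 at the adjusted threshold. H2-D1 was that member, with a log2 fold change of 0.30 ± 0.14 (SE, adjusted p = 0.181). The shares of all genes here and below belong to the adjusted rule. None was counted at an unadjusted p, so counts by that looser rule have no share beside them.

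In CD9+ macrophages 0 of the 9 members passed the adjusted threshold, beside 8.46% of all genes that rose and 9.24% that fell. At an unadjusted p under 0.05, a looser rule than that of these shares, it was 4. With scaling by library size only, 2 rose. The 4 with an unadjusted p under 0.05 were B2m, with a log2 fold change of 0.52 ± 0.19 (SE, adjusted p = 0.0761), H2-D1, with 0.30 ± 0.14 (SE, adjusted p = 0.143), Psmb8, with -0.43 ± 0.14 (SE, adjusted p = 0.0504), and Nlrc5, with -0.55 ± 0.19 (SE, adjusted p = 0.0667). B2m and Psmb8 passed with DESeq2 and in the fit with a replicate block. The eosinophil markers of the day 14 libraries move with this comparison. In F4/80- cells 0 of 9 passed with edgeR, beside 2.44% of all genes higher and 3.66% lower. There 2 had an unadjusted p under 0.05, Tapbp and Nlrc5, and Nlrc5 alone passed with DESeq2. Its log2 fold change was -0.70 ± 0.20 (SE, adjusted p = 0.0509), and it passed in 11 of 24 alternative fits.

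In neutrophils H2-K1 and Nlrc5 fell, 2 of the 9 members, and 0 rose, beside 16.2% of all genes that fell and 11.5% that rose. The log2 fold change of H2-K1 was -0.76 ± 0.15 (SE, adjusted p = 0.00138) and that of Nlrc5 was -0.98 ± 0.21 (SE, adjusted p = 0.00319). Both were short of a fold of 2, so 0 of 9 met the adjusted p and the fold threshold of the study together, where 10.9% of all genes were lower by this rule. H2-K1 passed in 23 of 23 alternatives. Nlrc5 passed in 22 of 23, the exception being the fit without replicate 1 of day 14, at an adjusted p of 0.0524. The macrophage marker sum of the neutrophil libraries also fell between these days, and its part in these changes was not tested. H2-D1 did not pass, with a log2 fold change of 0.06 ± 0.14 (SE, adjusted p = 0.793) in the same libraries. The ratio of H2-D1 to H2-K1 counts, which no scaling between libraries touches, went from 4.42 and 4.05 in the day 1 libraries to 7.51 and 7.42 in those of day 14. In all 12 other libraries this ratio lay between 2.04 and 2.87.

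**Figure D2:**
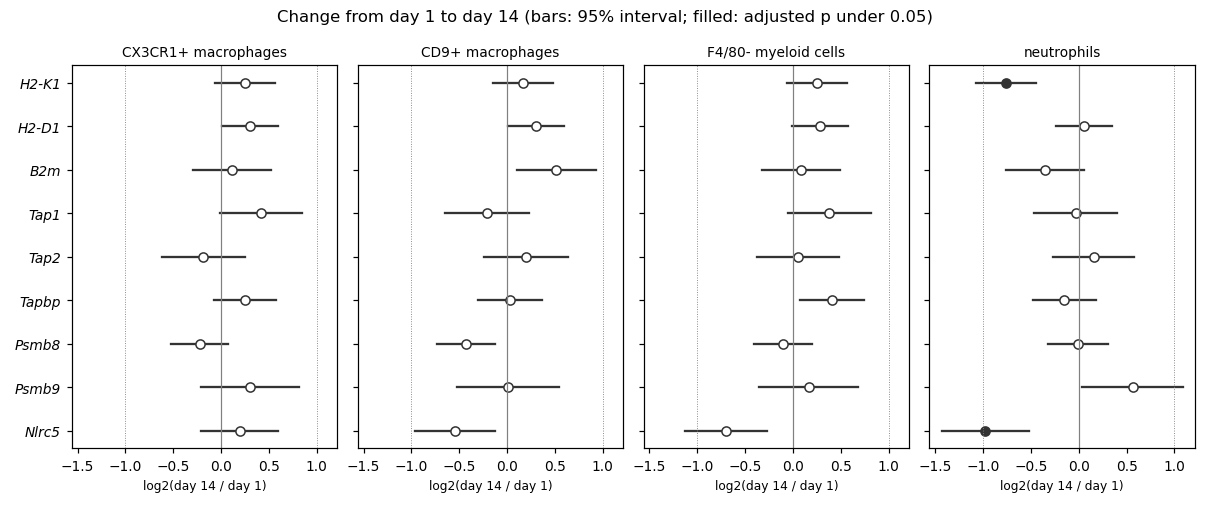
Log2 fold change from day 1 to day 14 (x axis) of each member (y axis) in the 4 populations, with 95% intervals from edgeR's fit as bars and dotted lines at a fold of 2. Filled points passed an adjusted p of 0.05, and they are H2-K1 and Nlrc5 in neutrophils.

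The change over time in CX3CR1+ macrophages was next set against that in each other population by an interaction term. H2-K1 fell in neutrophils and had a log2 fold change of 0.25 ± 0.15 (SE, adjusted p = 0.298) in CX3CR1+ macrophages, with a difference of log2 changes (CX3CR1+ macrophages minus neutrophils) of 1.02 ± 0.21 (SE, adjusted p = 0.0046), and the difference for Nlrc5 was 1.17 ± 0.29 (SE, adjusted p = 0.0138). These 2 of 9 met the adjusted p and the fold threshold, beside 7.3% of all genes higher by the same rule. The difference for H2-K1 stood just past the fold threshold and kept its adjusted p under 0.05 in 23 of 23 alternatives. Nlrc5 kept it in 19 of 23, and its adjusted p rose above 0.05, to at most 0.0799, without replicate 2 of CX3CR1+ day 1, replicate 2 of neutrophils day 1, replicate 2 of CX3CR1+ day 14 or replicate 1 of neutrophils day 14. Against CD9+ macrophages 0 of 9 members passed (1.38% of all genes did upwards and 1.47% downwards), with 2 at an unadjusted p under 0.05 and 0 with DESeq2, and against F4/80- cells 0 of 9 passed (0.633% and 0.533% of all genes), with 1 at an unadjusted p under 0.05 and 0 with DESeq2. For Nlrc5 these differences of log2 changes were 0.74 ± 0.27 (SE, adjusted p = 0.178) against CD9+ macrophages and 0.90 ± 0.28 (SE, adjusted p = 0.184) against F4/80- cells.

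The second question was how the populations differ on each day, with CX3CR1+ macrophages as the reference. Against CD9+ macrophages on day 1, B2m was the member that passed, 1 of 9, beside 5.28% of all genes higher and 10.4% lower in CX3CR1+ macrophages. Its log2 difference was 0.69 ± 0.19 (SE, adjusted p = 0.025), and it was lost in the fit of the compared libraries alone and without replicate 2 of CD9+ day 1, or either CX3CR1+ library of day 1, the CD9+ replicates of that day being the least alike. On day 14, 3 of 9 were higher in CX3CR1+ macrophages, beside 11.8% of all genes, and 0 were lower, beside 14.5%. Nlrc5 differed by 1.01 ± 0.19 (SE, adjusted p = 0.00112), Tap1 by 0.62 ± 0.21 (SE, adjusted p = 0.035) and Psmb8 by 0.52 ± 0.14 (SE, adjusted p = 0.0134). Nlrc5 alone met the fold threshold, where 4.55% of all genes did, and it stood close to it, while its adjusted p stayed under 0.05 in 24 of 24 alternatives. Tap1 lost its adjusted p without any 1 of the 4 libraries compared, and Psmb8 without either CD9+ library or replicate 2 of the CX3CR1+ libraries, with log2 differences that stayed at 0.44 or more and adjusted p of up to 0.212 and 0.0725. The heavy chains did not pass on either day: H2-K1 differed by 0.07 ± 0.15 (SE, adjusted p = 0.799) and H2-D1 by 0.13 ± 0.14 (SE, adjusted p = 0.542) on day 14, with 95% intervals of -0.25 to 0.38 and -0.16 to 0.42. The sums of eosinophil and of neutrophil markers were higher in the CD9+ libraries of this comparison. The neutrophil markers Csf3r and Mmp8 were lower there on both days, at 106 against 234.5 CPM and 34.9 against 157 CPM on day 14.

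Against F4/80- myeloid cells most members were higher in CX3CR1+ macrophages. On day 1, 7 of 9 were higher and 0 lower, beside 18.1% and 18.4% of all genes, and the median log2 difference of the 9 was 0.75 against 0.00 over all tested genes. On day 14 the counts were again 7 and 0, beside 19.6% and 17.4%, with a median of 0.76 against 0.05. The 7 were H2-K1, H2-D1, B2m, Tap1, Tapbp, Psmb8 and Nlrc5 on both days, and the other two, Tap2 and Psmb9, passed on neither.

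H2-K1 differed from F4/80- cells by 0.95 ± 0.15 (SE, adjusted p = 0.000114) on day 1 and 0.96 ± 0.15 (SE, adjusted p = 0.00011) on day 14, and H2-D1 by 0.95 ± 0.14 (SE, adjusted p = 6.07e-05) and 0.97 ± 0.14 (SE, adjusted p = 5.07e-05). Both heavy chains passed in 24 of 24 alternatives on each day. Nlrc5 differed most, by 1.39 ± 0.19 (SE, adjusted p = 4.00e-05) on day 1 and by 2.29 ± 0.20 (SE, adjusted p = 4.81e-07) on day 14, and was the only member past the fold threshold (beside 10.2% of all genes on day 1 and 11.1% on day 14). The other 4 differed by 0.61 to 0.80 on day 1 and 0.49 to 0.83 on day 14. On day 1, B2m lost its adjusted p without replicate 2 of the F4/80- libraries (0.0536), and Tap1 without that library or replicate 1 of the CX3CR1+ libraries (up to 0.107). On day 14, Tap1 lost it without replicate 1 of CX3CR1+ or replicate 2 of F4/80- (up to 0.0697), Tapbp without replicate 1 of either (up to 0.0587) and Psmb8 without any 1 of the 4 libraries (up to 0.0919). CD9+ macrophages were likewise higher than F4/80- cells in 5 of 9 members on day 1, beside 16.7% of all genes higher and 12.4% lower, and in 3 of 9 on day 14, beside 9.3% and 3.31%. No member was lower. On both days these included H2-K1, H2-D1 and Nlrc5. With the replicate block B2m joined on day 14, as the fourth member. F4/80- libraries had higher sums of neutrophil markers and of basophil and mast cell markers than CX3CR1+ libraries. The part of these markers in these differences was not tested.

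**Figure D3:**
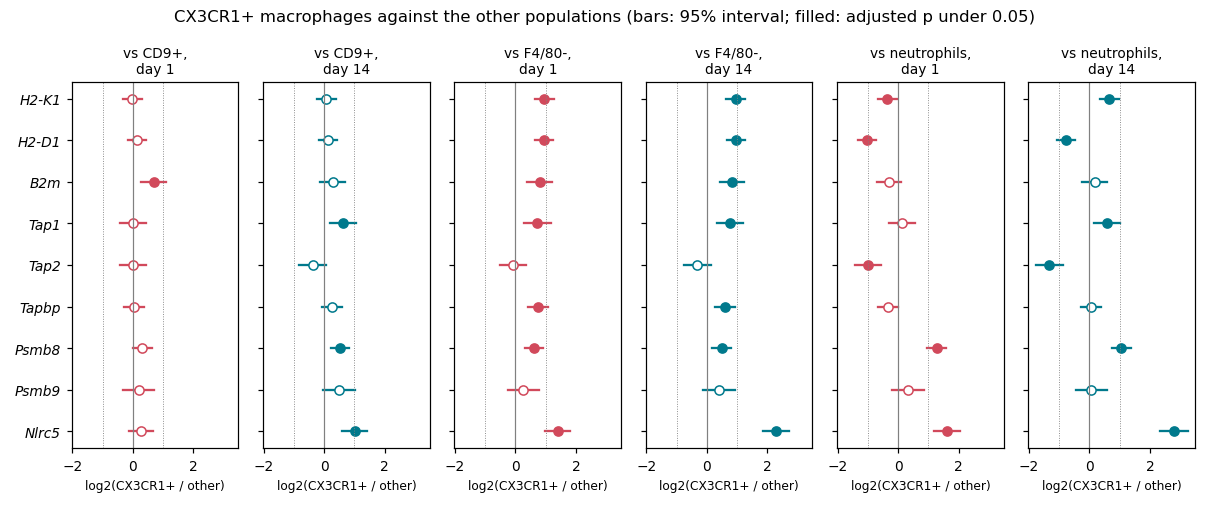
Log2 difference of CX3CR1+ macrophages from each other population (x axis) for each member (y axis) on day 1 and day 14, with 95% intervals as bars and dotted lines at a fold of 2. Filled points passed an adjusted p of 0.05, and against F4/80- cells these are 7 of the 9 members on each day.

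Against neutrophils the members split. On day 1, 2 of 9 were higher in CX3CR1+ macrophages, beside 35% of all genes, and 3 of 9 were lower, beside 34.8%. On day 14, 4 were higher, beside 35.4%, and 2 lower, beside 31.5%, so a large share of all genes differed here in either direction. These splits depend on the scaling: with library size only, 4 were higher and 1 lower on day 1, and 6 were higher and 1 lower on day 14. Tap1 was among those higher on day 14, by 0.58 ± 0.21 (SE, adjusted p = 0.0206), and lost its adjusted p without replicate 1 of CX3CR1+ or either neutrophil library of that day (up to 0.102). Nlrc5 was higher than in neutrophils by 1.61 ± 0.20 (SE, adjusted p = 3.64e-06) on day 1 and by 2.78 ± 0.21 (SE, adjusted p = 2.30e-08) on day 14, and Psmb8 by 1.27 ± 0.14 (SE, adjusted p = 1.66e-06) and 1.05 ± 0.15 (SE, adjusted p = 1.28e-05). H2-D1 was lower than in neutrophils, by -1.02 ± 0.14 (SE, adjusted p = 9.76e-06) on day 1 and -0.78 ± 0.14 (SE, adjusted p = 0.000131) on day 14, and Tap2 by -0.99 ± 0.20 (SE, adjusted p = 0.000477) and -1.33 ± 0.21 (SE, adjusted p = 4.03e-05). These 4 genes kept their direction under every scaling, although H2-D1 on day 14 and Tap2 on day 1 did not pass when only library size was used, at -0.28 and -0.41.

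H2-K1 was lower in CX3CR1+ macrophages than in neutrophils on day 1, by -0.35 ± 0.15 (SE, adjusted p = 0.0427), and higher on day 14, by 0.66 ± 0.15 (SE, adjusted p = 0.00105). The day 1 difference changed sign when libraries were scaled by size only, to 0.22, and passed in 4 of 23 alternatives, whereas that of day 14 passed in 23 of 23. CD9+ macrophages and F4/80- cells gave the same directions for H2-D1, Tap2 and Psmb8. In CD9+ macrophages against neutrophils, H2-D1 differed by -1.16 ± 0.14 (SE, adjusted p = 3.08e-06) on day 1 and Nlrc5 by 1.77 ± 0.21 (SE, adjusted p = 3.16e-06) on day 14. On day 1, 2 of 9 members were higher and 4 lower than in neutrophils, beside 35.5% and 33.7% of all genes. The fourth of those lower, Tapbp, at -0.37 ± 0.16 (SE, adjusted p = 0.0457), was lost with the replicate block. With library size only these counts were 2 and 3. In F4/80- cells against neutrophils, 1 of 9 was higher and 6 lower on day 1, beside 33.5% and 34.8% of all genes, and H2-D1 differed by -1.98 ± 0.14 (SE, adjusted p = 1.78e-08). With library size only, 3 were higher and 4 lower. On day 14, CD9+ macrophages had 3 members higher and 2 lower than neutrophils, beside 37.2% and 31.6% of all genes, and F4/80- cells had 1 higher and 4 lower, beside 34.3% and 33.3%. With library size only, the day 14 counts stayed at 3 and 2 for CD9+ macrophages and became 2 and 2 for F4/80- cells. The sums of neutrophil markers in F4/80- and CD9+ libraries stood between those of CX3CR1+ macrophages and neutrophils, but Mmp8 and Csf3r did not follow. Mmp8 had group means of 19.3 to 150 CPM in these cells against 157 and 218 CPM in CX3CR1+ macrophages. Csf3r was at 106 and 138 CPM in CD9+ macrophages against 213 and 234.5 CPM in CX3CR1+ macrophages. The other markers of the sum were higher than in CX3CR1+ macrophages.

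Ratios within a library do not depend on the scaling between libraries, and the plot of ratios shows them. The ratio of Tap2 to Tap1 counts was 1.10 to 1.42 in the 4 neutrophil libraries and 0.317 to 0.956 in all others, with the lowest values, 0.317 and 0.387, in CX3CR1+ macrophages on day 14. These ratios and those of H2-D1 to H2-K1 are given as a description, without a test.

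Each immunoproteasome subunit can be set against the standard subunit it replaces, as a share of both per exon length. The lengths are those of GENCODE M21, while the counting used another Gencode release, and the spans of H2-K1 and Psmb9 in the table differ from those of M21, so the values per kilobase of these genes and the Psmb9 share carry that limit. Each length is the union of all exons annotated for a gene, 3381 bases of a span of 3734 for Psmb8 and 899 of 3904 for Psmb5. Such a union can be longer than any single transcript, so the shares and the values per kilobase depend on it. Psmb8 (of Psmb8 and Psmb5) made up 64.5% to 79.9% in all libraries, and its share in neutrophils, 68.3% to 75.1%, lay within the range of the other populations although Psmb8 itself was lowest there. Psmb9 (of Psmb9 and Psmb6) made up 10.1% to 26.3%, with the highest value in neutrophils on day 14. The share of Psmb10 (of Psmb10 and Psmb7), the remaining inducible catalytic subunit, was lower in neutrophils than in every other library. This share was 60.2% to 74.0% in CX3CR1+ libraries, 46.5% to 63.8% in CD9+ libraries, 40.4% to 53.9% in F4/80- libraries and 26.6% to 32.4% in neutrophils. The ranges of CX3CR1+ and CD9+ libraries overlapped, as did those of CD9+ and F4/80- libraries, and no test was made.

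**Figure D4:**
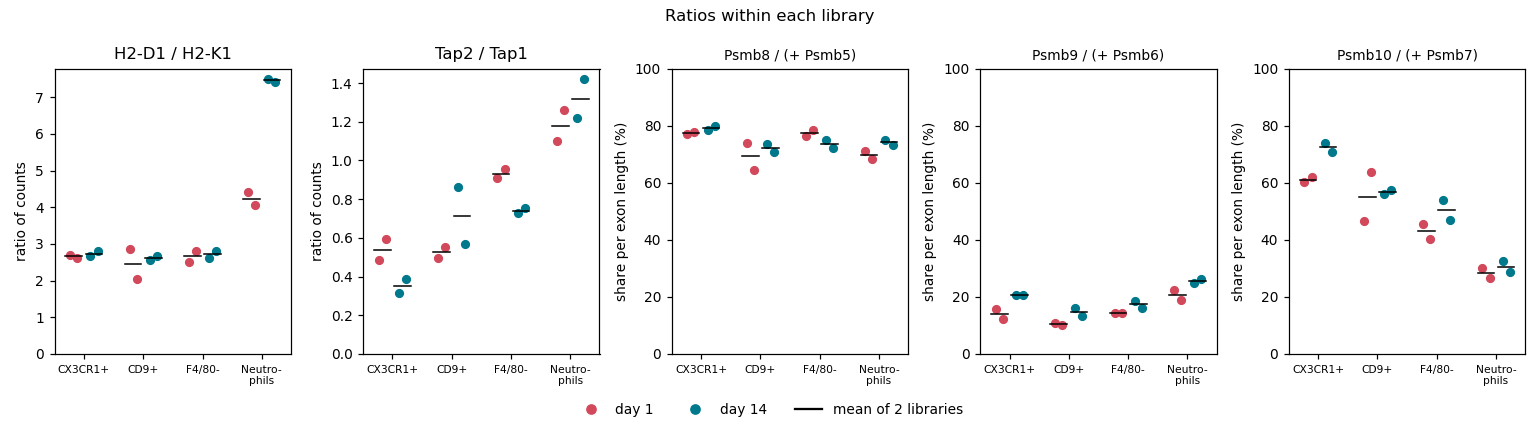
Ratio of H2-D1 to H2-K1 counts and of Tap2 to Tap1 counts, and share of each immunoproteasome subunit per exon length against its standard counterpart in percent, in each library by population (x axis) and day (colour), with means of 2 libraries as lines. The H2-D1 to H2-K1 ratio is 4.05 to 7.51 in neutrophils and 2.04 to 2.87 elsewhere.

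The rest of the pathway was described by 4 lists: 8 genes of peptide supply and loading, 3 standard proteasome subunits, 11 non-classical class I heavy chains and 19 interferon receptors and regulators of class I promoters. Within each population, the chaperone gene Calr (calreticulin, a part of the loading complex) gave the largest fall of the loading list in CX3CR1+ macrophages, F4/80- cells and neutrophils. In F4/80- cells Calr went from a group mean of 925 CPM to 479 CPM, a log2 fold change of -0.95. It went from 879 and 891 CPM on day 1 to 375 and 327 CPM on day 14 in CX3CR1+ macrophages, a log2 fold change of -1.33 ± 0.15 (SE, adjusted p = 3.56e-05), and from 598 and 607 CPM to 162 and 176 CPM in neutrophils, with -1.83 ± 0.15 (SE, adjusted p = 5.48e-07). Of the 8 loading genes, 2 fell and 0 rose in each of the CX3CR1+, CD9+ and F4/80- populations, and 3 fell and 0 rose in neutrophils. Of all tested genes, 6.07% fell in CX3CR1+ macrophages, 9.24% in CD9+ macrophages, 3.66% in F4/80- cells and 16.2% in neutrophils. In CD9+ macrophages 1 of the 2 was lost with the replicate block. Calr also fell more in CX3CR1+ than in CD9+ macrophages, with a difference of log2 changes of -0.89 ± 0.21 (SE, adjusted p = 0.0326), which passed in 16 of 24 alternatives and not in the fit of the compared libraries alone or without either CX3CR1+ library of either day, replicate 2 of CD9+ day 14 or either neutrophil library of day 14 (adjusted p up to 0.15). Canx, which encodes calnexin, fell more in neutrophils than in CX3CR1+ macrophages, with 1.03 ± 0.18 (SE, adjusted p = 0.00132).

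Between populations, Psmb10 gave the largest difference of the loading list against F4/80- cells and neutrophils. It was at 43.1 and 43.8 CPM on day 1 and 44.9 and 40.1 CPM on day 14 in CX3CR1+ macrophages and at 9.49 and 5.25 CPM and 7.32 and 7.18 CPM in neutrophils, a log2 difference of 2.55 ± 0.28 (SE, adjusted p = 1.04e-06) on day 1. Of the 8 loading genes, 7 on day 1 and 8 on day 14 were higher than in neutrophils, and 0 were lower on either day, beside 35% of all genes higher on day 1 and 35.4% on day 14. The members H2-D1 and Tap2 were higher in neutrophils. Of the 3 standard proteasome subunits, 2 fell over time in CD9+ macrophages, beside 9.24% of all genes, and 1 in CX3CR1+ macrophages, beside 6.07%. In F4/80- cells 0 fell with edgeR, beside 3.66% (1 at an unadjusted p under 0.05 and 1 with DESeq2). In neutrophils 0 fell, beside 16.2%, also at an unadjusted p and with DESeq2. In no population did any rise. Compared with neutrophils, 3 on day 1 and 1 on day 14 were higher in CX3CR1+ macrophages (with library size only, 3 on each day). Beside these stood 35% and 35.4% of all genes. The 2 falls in CD9+ macrophages became 0 with library size only and 1 with upper quartile scaling, and were 0 to 2 without single libraries.

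The non-classical genes held the widest contrasts. H2-Q10, which encodes a class Ib heavy chain best known from liver, was at 156 and 146 CPM on day 1 and 163 and 169.5 CPM on day 14 in neutrophils and at no more than 5.45 CPM in any other library. H2-T24 was also highest in neutrophils, at 110.2 and 81.4 CPM and 129 and 122 CPM. In CX3CR1+ macrophages H2-T24 rose from 24.3 and 25.1 CPM to 44.6 and 55.4 CPM, with 1.02 ± 0.23 (SE, adjusted p = 0.00789), and its change differed from that in F4/80- cells by 1.44 ± 0.33 (SE, adjusted p = 0.0479). The rise did not pass without either CX3CR1+ library of day 1 or replicate 2 of day 14 (adjusted p up to 0.0957). The difference from F4/80- cells passed in 11 of 24 alternatives, with an adjusted p of up to 0.265, and was lost with the replicate block, without the 4 neutrophil libraries and without 11 of the 16 single libraries, among them each CX3CR1+ library. Since these genes resemble H2-D1 and H2-K1, reads of one may have been counted on another, and this was not tested.

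Of the 11 non-classical genes, 3 rose over time in CX3CR1+ macrophages and 0 fell, and in neutrophils 0 rose and 2 fell. Of all genes 6.54% rose in CX3CR1+ macrophages and 16.2% fell in neutrophils. Without single libraries the rises in CX3CR1+ macrophages were 1 to 4 and the falls in neutrophils 1 to 3, and with the replicate block 1 of the 2 falls was lost. The largest rise in CX3CR1+ macrophages was that of H2-Q6, a Qa-2 gene, from 1.79 and 1.51 CPM to 6.08 and 5.83 CPM, with 1.84 ± 0.37 (SE, adjusted p = 0.00429). In CD9+ macrophages H2-Q6 was higher, at 7.47 and 11.5 CPM on day 1 and 11.9 and 14.5 CPM on day 14. Fcgrt, the neonatal Fc receptor, which pairs with beta-2-microglobulin, was at 36.5 and 37.5 CPM in CX3CR1+ macrophages and 16.9 and 23.5 CPM in CD9+ macrophages on day 14, and it rose in both, by 1.35 ± 0.35 (SE, adjusted p = 0.0198) and by 1.27 ± 0.37 (SE, adjusted p = 0.0283). The rise in CX3CR1+ macrophages did not pass without any 1 of their 4 libraries (adjusted p up to 0.116), and that in CD9+ macrophages did not pass in the fit of the compared libraries alone, without replicate 1 of day 1 or without either library of day 14 (up to 0.168). In neutrophils it was at no more than 2.32 CPM.

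Among the 19 receptors and regulators, 9 were higher and 0 lower in CX3CR1+ than in CD9+ macrophages on day 14, against 3 and 0 on day 1. Of all genes 11.8% were higher and 14.5% lower on day 14, and 5.28% and 10.4% on day 1. With library size only, which moved the median of all genes by 0.24 on day 1 and 0.01 on day 14, the counts were 10 and 0 on day 14 and 9 and 0 on day 1, so the gap between the days depends on the scaling. Without single libraries 9 to 11 were higher on day 14 and 1 to 6 on day 1. The largest difference on day 14 was that of Irf9, a part of the type I interferon response factor, with 1.25 ± 0.19 (SE, adjusted p = 0.000174). Ifngr1, the ligand-binding chain of the interferon gamma receptor, was at 446 and 478 CPM on day 1 and 456 and 476 CPM on day 14 in CX3CR1+ macrophages, above every library of the other populations. In the comparison with F4/80- cells, 11 of the 19 passed upwards and 3 downwards on day 1, and on day 14 these counts were 10 and 3, beside 18.1% and 18.4% of all genes on day 1 and 19.6% and 17.4% on day 14.

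Irf8, a factor of the macrophage and dendritic cell lineages, was at 12.3 and 10.1 CPM on day 1 and 4.92 and 2.46 CPM on day 14 in neutrophils. In CX3CR1+ macrophages it rose from 206 and 188 CPM to 286 and 297 CPM, by 0.56 ± 0.17 (SE, adjusted p = 0.0375), and its change differed from that in CD9+ macrophages by 0.97 ± 0.24 (SE, adjusted p = 0.0383) and from that in neutrophils by 2.19 ± 0.29 (SE, adjusted p = 0.000166). The rise in CX3CR1+ macrophages passed in 16 of 23 alternatives and was lost with library size only, without any 1 of the 4 CX3CR1+ libraries and without either F4/80- library of day 14 (adjusted p up to 0.217). The difference from CD9+ macrophages passed in 11 of 23 and was lost with library size only, with upper quartile scaling and without any CX3CR1+ or F4/80- library or either CD9+ library of day 14 (up to 0.155), while that from neutrophils passed in 22 of 22. Jak2, a kinase that interferon gamma receptors use, fell in neutrophils from 398 and 575 CPM to 162 and 145 CPM, with -1.66 ± 0.15 (SE, adjusted p = 8.85e-07).

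**Figure D5:**
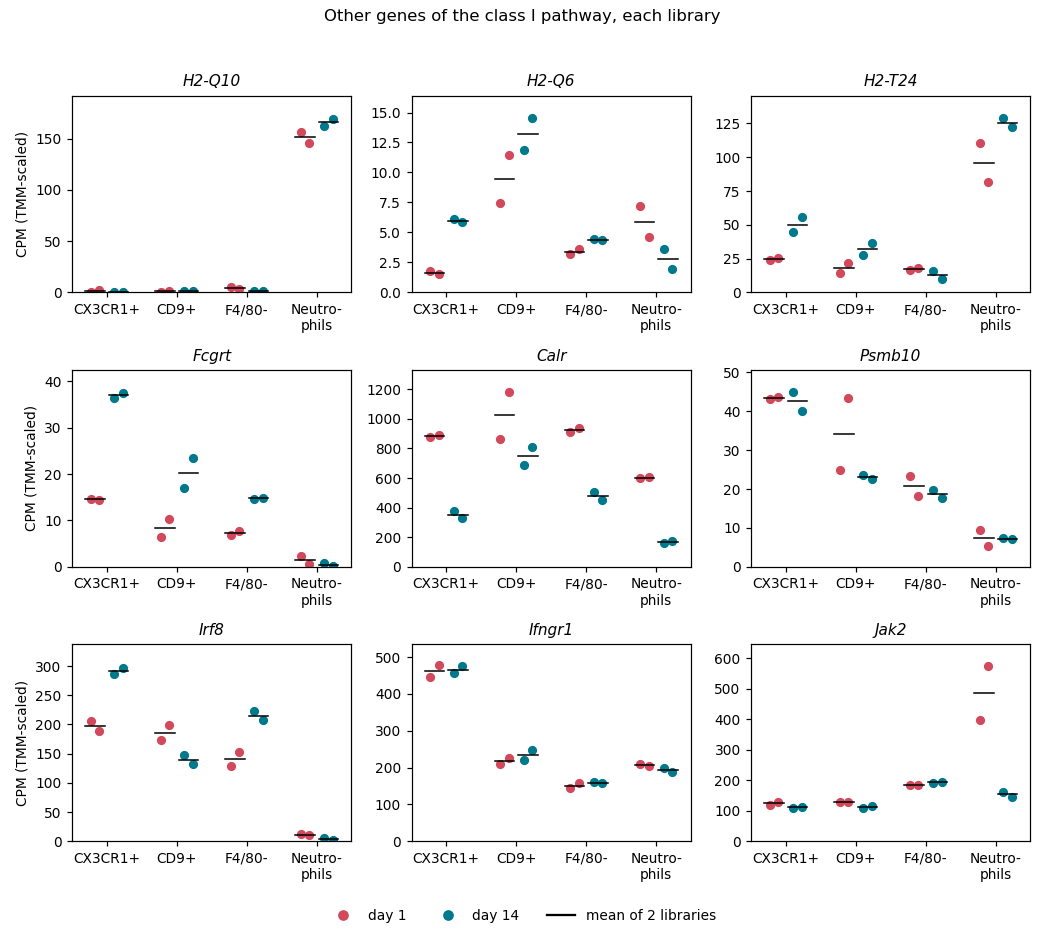
TMM-scaled CPM (y axis, from 0) of 9 other class I pathway genes in each library, by population (x axis) and day (colour), with the mean of the 2 libraries as a line. H2-Q10 is at 146 CPM or more in neutrophils and at 5.45 CPM or less elsewhere, and Ifngr1 is highest in CX3CR1+ macrophages.

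Across the 8 group means the members did not follow one profile. As a description over 8 points that share libraries, the Pearson correlation was 0.857 between B2m and Tapbp and 0.899 between H2-D1 and Tapbp, 0.856 between Nlrc5 and Psmb8, and -0.904 between Tap2 and Psmb8. Nlrc5 correlated at 0.541 with H2-K1 and at -0.173 with H2-D1. The mean standardised profile of the 9 members was highest in CX3CR1+ macrophages on day 14 and lowest in F4/80- cells on day 1. The 5 tested genes outside the members with the profile most like it over the 8 group means were Nuak2 (r = 0.985), Fam234a (0.980), Irf7 (0.968), H2-T22 (0.962) and Cpt1a (0.959). Irf7, a regulator of type I interferon genes, had group means of 106 CPM in CX3CR1+ macrophages and 16.1 CPM in F4/80- cells on day 14.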

How the data were processed

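According to the study's methods, libraries were prepared from sorted-cell RNA with the SMART-Seq Stranded Kit and sequenced in paired-end mode, reads were trimmed with Cutadapt and aligned with STAR to mm10, and reads in exons of a Gencode annotation were counted by the authors; the raw counts per gene were deposited and are used here as they are. Whether the counting used strand is not given in the sources used here. The table gave 20200 genes in 16 libraries with 9233952 to 19814119 counts each.

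A gene was tested if its mean reached 3 CPM in any of the 8 groups, which left 11998 genes. One model with the 8 group means was fitted over all libraries with edgeR 4.0.16 in R 4.3.3 (TMM scaling, quasi-likelihood F-test, two-sided), and p-values were adjusted by the Benjamini-Hochberg method over all tested genes of a comparison. A gene passed at an adjusted p under 0.05, and met the fold threshold where it also changed by a fold of at least 2. DESeq2 1.42.0, other scalings, other filters, a fit of the compared libraries alone, a fit without the neutrophil libraries, a replicate block and leaving out each library were alternatives.

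In simulated counts of 11608 genes with changes put into the CX3CR1+ day 14 libraries, 76 of 86 genes changed by 1.5 on the log2 scale and 105 of 108 changed by 2 were called over time in CX3CR1+ macrophages, with 6 unchanged genes called. For the difference from the change in neutrophils these were 47 of 86 and 85 of 108, with 8 unchanged genes called. Recovery of changes smaller than 1.5 was not tested. The members had log2 fold changes of -0.23 to 0.42 over time in CX3CR1+ macrophages. Their differences from the change in neutrophils that passed were 1.02 (H2-K1) and 1.17 (Nlrc5).

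Same-numbered libraries of a day probably came from the same pooled mice, as their titles and the account of the sort imply. Their deviations from the group means correlated at 0.0132 to 0.144 in 12 pairs, all above 0.

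The 9 members and the other lists were chosen with earlier results of these data known. Named genes are the 9 members, the called genes with the largest or smallest change of each of 4 pathway lists, and the 5 genes most like the members in profile. Exon lengths came from GENCODE M21, another release than that of the counting, and promoter windows from RefSeq. No protein sequences were used here.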

Additional observations from a re-analysis of the deposited data

Results flagged for a closer look

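The change from day 1 to day 14 differed between CX3CR1+ macrophages and neutrophils for 2 of the 9 members, by the interaction term of edgeR's model. For H2-K1 the difference of log2 changes was 1.02 ± 0.21 (SE, adjusted p = 0.0046), and for Nlrc5 it was 1.17 ± 0.29 (SE, adjusted p = 0.0138), beside 7.3% of all genes past the same adjusted p and fold upwards. The adjusted p of Nlrc5 rose above 0.05, to at most 0.0799, without replicate 2 of CX3CR1+ day 1, replicate 2 of neutrophils day 1, replicate 2 of CX3CR1+ day 14 or replicate 1 of neutrophils day 14. For H2-K1 the fall in neutrophils passed the test on its own, and the rise in CX3CR1+ macrophages did not. The neutrophil marker sum of the neutrophil libraries was 31711 to 50358 CPM on day 1 and 50925 to 54915 CPM on day 14. The macrophage marker sum was 207 to 218 CPM in the neutrophil libraries of day 1 and 68.3 to 72.8 CPM in those of day 14, and 820 to 858 CPM and 467 to 521 CPM in the CX3CR1+ libraries. The part of these markers in the differences was not tested.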

How the results depend on the processing

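The limits are 2 pooled libraries a group, no unoperated group, and scaling between neutrophils and the rest. Counts here are of members past the adjusted p and the fold threshold. For neutrophils over time the count of 0 became 1 with the filter of 3 CPM in every group, and 0 to 1 without single libraries (1 without replicate 1 of neutrophils day 1 or replicate 2 of neutrophils day 14). For CX3CR1+ against CD9+ macrophages on day 14 the count of 1 became 0 with upper quartile scaling, with that filter and without the 4 neutrophil libraries, and 0 to 1 without single libraries (0 without replicate 2 of either group). On day 1 it was 0 to 1 (1 without replicate 1 of CD9+ day 1). Against F4/80- cells the count of 1 was 1 to 3 on each day without single libraries, with 3 without replicate 2 of CX3CR1+ day 1 or replicate 1 of CX3CR1+ day 14, and 2 without replicate 2 of F4/80- day 1 or replicate 1 of F4/80- day 14. Against neutrophils the count of 3, in either direction, was 2 to 4 on day 1 and 2 to 3 on day 14. Of the 11998 tested genes, 6113 on day 1 and 5758 on day 14 met the same rule in either direction. For the difference in change from neutrophils the count of 2 became 1 with DESeq2, library size only, upper quartile scaling, no filter on low counts and the compared libraries alone, and 0 to 2 without single libraries (0 without replicate 2 of CX3CR1+ day 1, of neutrophils day 1 or of CX3CR1+ day 14, and 1 without replicate 1 of neutrophils day 14, any F4/80- library or either CD9+ library of day 14). The cause of these shifts was not tested.

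With scaling by library size only, 3 single results changed sign: H2-K1 in CX3CR1+ macrophages against neutrophils on day 1 went from -0.35 to 0.22, Tap1 in F4/80- cells against neutrophils on day 1 from -0.60 to 0.016, and Tapbp on day 14 from -0.52 to 0.041. Without division by exon length the mean immunoproteasome shares were 91.4% instead of 74.1% (Psmb8), 28.7% instead of 17.2% (Psmb9) and 34.3% instead of 49.7% (Psmb10). With the replicate block the number of members passing the adjusted p went from 0 to 2 in CD9+ macrophages over time, from 6 to 5 for CD9+ macrophages against neutrophils on day 1 and from 3 to 4 against F4/80- cells on day 14, and all 70 single results kept their side of the fold rule; the block changed no other call of a member. Among the counts of the other pathway lists given above, the block moved the non-classical falls in neutrophils from 2 to 1 and the loading falls in CD9+ macrophages from 2 to 1. The non-classical difference in change from F4/80- cells went from 1 to 0. The regulators higher in CX3CR1+ than in CD9+ macrophages went from 9 to 10 on day 14 and from 3 to 4 on day 1.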
